A study of Mus musculus with 14 samples.

Results

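The genes described here encode the proteins of the mitochondrial ribosome. They were taken by name, as the measured genes whose only symbol in the platform annotation starts with Mrpl (large subunit) or Mrps (small subunit) followed by a digit. The rule found 44 genes among 6288 measured genes with a single symbol, 31 of the large and 13 of the small subunit, on 49 probes. All 44 had a value on at least 3 arrays of each strain, so the filter on missing values removed none of them. A further 3 probes pair a symbol of this kind with that of another gene and were left out of the set. Mrps18a and Mrps36 were counted with the small subunit by their names, although mammalian structures place Mrps18a in the large subunit and Mrps36 is also known as a component of the alpha-ketoglutarate dehydrogenase complex.

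RNA from the spleens of AcB61 mice (8 arrays) and AcB55 mice (6 arrays) was compared with spleen RNA of A/J mice, which filled channel 2 of every array. The title names malaria resistance as the subject of the series. AcB61 and AcB55 are recombinant congenic mouse strains, inbred lines that carry segments of the C57BL/6 genome on a background of A/J. The labels give no sex, age or infection for any of the groups and do not say whether animals were pooled or whether arrays shared an animal. Each array was therefore taken as the replicate, and the p-values reflect only how arrays scatter within the strains, part of which may be technical. The scatter of both strains was pooled into a shared estimate for each feature, so the p-values of each strain also depend on the arrays of the other. No array held A/J against A/J, so the variation of A/J itself was not measured apart. The labels do not say whether the arrays shared A/J RNA, so a test of a strain against A/J may not reflect that variation.

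Mitochondria keep a small genome of their own, and the mitochondrial ribosome translates its messages into core subunits of the respiratory chain and the ATP synthase. All proteins of this ribosome are encoded in the nucleus, made in the cytosol and imported, and they assemble around ribosomal RNA copied from the mitochondrial genome. The small subunit reads the messenger RNA, and the large subunit joins the amino acids and releases the chain towards the inner membrane. The spleen of the mouse makes red cells as well as holding lymphocytes and macrophages, and red cell precursors use mitochondria to make haem.

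Every value is a deposited log ratio of the strain to A/J, taken here as log2, so that a positive value is higher in the strain. The direction is likely rather than settled: the labels name the strain as channel 1 and A/J as channel 2 on all arrays, but do not give the dye of each channel. A ratio carries no level of expression, so genes cannot be ranked by abundance, and the labelled tissue could not be checked against the levels of its markers. In bulk tissue, fewer cells of a type and less RNA per cell cannot be told apart.

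The AcB61 arrays were not alike. Over all measured features, arrays 2, 6 and 8 correlated with each other at r = 0.788 to 0.833 and arrays 3, 5 and 7 at 0.704 to 0.795, while r between these sets ran from -0.089 to 0.151. AcB61 arrays 1 and 4 correlated with those 6 arrays at 0.365 to 0.638. The dye orientation and the slide batch of the arrays are not given, and the cause of the division was not tested. Values without either set of 3 arrays are alternatives chosen after seeing the data. For genes called in AcB61 they are given where the call ended or the mean moved by over 1.5 times.

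Most of the genes differed little from A/J. A gene was called when limma's moderated test gave an adjusted p under 0.05, after Benjamini-Hochberg correction across the 13045 features tested. In AcB61, 11 of 44 genes (25%) passed, against 23.8% of all features. Of these, 8 were higher, where 10.5% of all features were higher, and 3 were lower, where 13.3% of all features were lower. In AcB55, 6 of 44 (13.6%) passed, against 20.7% of all features, 2 of them higher (9.77% of all features) and 4 lower (10.9% of all features). The share called in AcB61 was thus near that of all features. In all, 17 genes were called in at least 1 strain and 27 passed in no comparison. The only mean as large as 1.5-fold was that of Mrps25 in AcB55.

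Which genes passed depended in part on single arrays. The count in AcB61 was 6 to 11 when each of the 14 arrays was left out in turn, with 7 without AcB61 array 1, 2 or 4 and 6 without array 6. It was 6 without AcB61 arrays 2, 6 and 8, and 15 without arrays 3, 5 and 7. Over all features 3103 of 13045 passed in AcB61 with all arrays, and 2695 to 3096 in the single leave-outs. Without AcB61 arrays 2, 6 and 8 it was 3217 of 13045 features, and without arrays 3, 5 and 7 it was 3296 of 13044. The count of the 44 genes in AcB55 was 2 to 8 over the same leave-outs, with 2 without AcB55 array 1 and 3 without array 6. Over all features it was 2695 with all arrays and 2064 to 2774 in the leave-outs. Mrpl27, Mrpl9, Mrpl51 and Mrps36 in AcB61 and Mrpl44 and Mrps25 in AcB55 kept their calls in all 14 leave-outs. The heat map of all 44 genes shows both the small size of most values and the arrays on which they depart together.

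**Figure D1:**
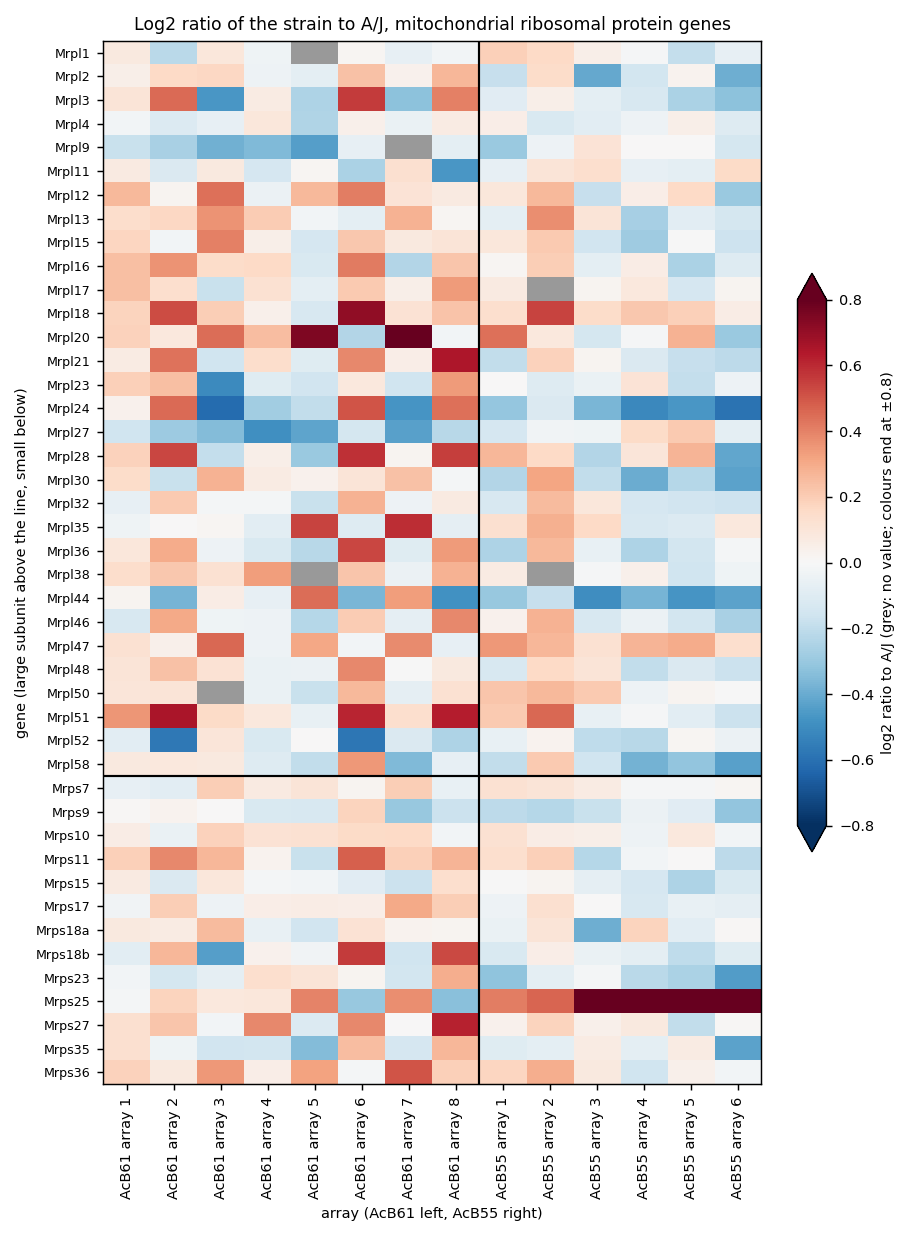
Log2 ratio of the strain to A/J for each of the 44 genes (rows, large subunit above the line) on each array (columns, AcB61 left and AcB55 right), with red for higher in the strain, blue for lower and grey for no value. Mrps25 is the darkest row in AcB55, and Mrpl27 is blue on all 8 AcB61 arrays.

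Mrps25, a protein of the small subunit, was the member with the largest change. Its log2 ratio was -0.02, 0.18, 0.09, 0.09, 0.40, -0.30, 0.37 and -0.33 on AcB61 arrays 1 to 8. On AcB55 arrays 1 to 6 it was 0.41, 0.46, 1.52, 1.11, 1.23 and 1.13. All 6 AcB55 arrays lay above all 8 AcB61 arrays, and within AcB55 arrays 1 and 2 lay well below the other 4. The mean was 0.06 ± 0.27 in AcB61 (SD, n = 8), which did not pass (SE 0.11, adjusted p = 0.773). In AcB55 it was 0.98 ± 0.44 (SD, n = 6), about 1.97-fold over A/J (SE 0.12, adjusted p = 2.34e-05). AcB61 minus AcB55 was -0.92 (SE 0.17, adjusted p = 0.00245).

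Leaving out each of the 14 arrays in turn, the AcB55 mean stayed between 0.87 and 1.09 and the difference between -1.03 and -0.81, all called. The difference was -0.79 without AcB61 arrays 2, 6 and 8 (adjusted p = 0.00455) and -1.05 without arrays 3, 5 and 7 (adjusted p = 0.00104). Without AcB55 arrays 1 and 2 the AcB55 mean of Mrps25 was 1.25 (adjusted p = 4.74e-06) and the difference -1.19 (adjusted p = 0.000138). Those 2 arrays also had the highest medians of the AcB55 arrays over the red cell precursor list, 0.69 and 0.79 against 0.32 to 0.45 on the others, and the part of this in the lower Mrps25 values was not tested. Mrps25 rests on a single probe. The 2 probes annotated to both Mrps25 and its neighbour Nr2c2, a nuclear receptor gene, did not show the rise: in AcB55 they averaged 0.18 ± 0.20 and -0.12 ± 0.21 (SD, n = 6; adjusted p = 0.0911 and 0.412, with every probe fitted on its own). In AcB61 the same probes averaged 0.05 ± 0.16 and 0.39 ± 0.26 (SD, n = 8), and the second of them passed (adjusted p = 0.00108). This second probe also passed between the strains, with a sign opposite to that of Mrps25 (AcB61 minus AcB55 0.51, adjusted p = 0.00925). The first did not (-0.13, adjusted p = 0.404). Which transcript each of these probes detects was not tested.

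In the RefSeq gene order, Mrps25 lies on chromosome 6. Neighbours were taken from the measured genes with a single symbol, so Nr2c2 and the probes it shares with Mrps25 are not among them. Of the 10 nearest such genes, 5 on each side, none passed in AcB55 (log2 ratios -0.10 to 0.18) or between the strains (-0.16 to 0.29). In AcB61 2 of them passed, Lsm3 (0.20, adjusted p = 0.0173), a subunit of the spliceosome's U6 particle, and Trh (0.19, adjusted p = 0.0433), the thyrotropin-releasing hormone gene. Among genes with a single symbol, Lsm3 is the measured gene next to Mrps25 on that side. The 150 bases before the RefSeq start of Mrps25 are shown because this gene passed between the strains (GRCm38.p6, chr6:92184024-92184173, minus strand, read 5′ to 3′ along the gene).
Mrps25: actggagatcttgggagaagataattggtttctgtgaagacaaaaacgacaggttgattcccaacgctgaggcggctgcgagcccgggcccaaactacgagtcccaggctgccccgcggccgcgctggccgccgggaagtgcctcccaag

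Mrpl27, a protein of the large subunit that lies near the site of peptide bond formation, was lower in AcB61. Its log2 ratio was -0.16, -0.29, -0.35, -0.49, -0.42, -0.14, -0.43 and -0.22 on AcB61 arrays 1 to 8, and -0.13, -0.03, -0.04, 0.15, 0.21 and -0.08 on AcB55 arrays 1 to 6. All 8 AcB61 arrays lay below 0 and below all 6 AcB55 arrays, with AcB61 array 6 just under AcB55 array 1. The mean was -0.31 ± 0.13 in AcB61 (SD, n = 8), 0.805-fold of A/J (SE 0.05, adjusted p = 0.000267). In AcB55 it was 0.01 ± 0.14 (SD, n = 6; SE 0.06, adjusted p = 0.919). AcB61 minus AcB55 was -0.33 (SE 0.08, adjusted p = 0.0125). This gene kept its AcB61 call without AcB61 arrays 2, 6 and 8 (-0.37, adjusted p = 0.000415) and without arrays 3, 5 and 7 (-0.26, adjusted p = 0.00625). The difference from AcB55 was no longer called without AcB55 arrays 3 and 4, whose titles end in b (-0.31, adjusted p = 0.0629).

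On chromosome 11 the 10 measured single-symbol neighbours of Mrpl27, 5 on each side, held no call in AcB61 (log2 ratios -0.12 to 0.13), in AcB55 (-0.10 to 0.19) or between the strains (-0.28 to 0.23). The stretch before its RefSeq start is shown because this gene too passed between the strains, with an ETS match in capitals (GRCm38.p6, chr11:94653641-94653790, plus strand).
Mrpl27: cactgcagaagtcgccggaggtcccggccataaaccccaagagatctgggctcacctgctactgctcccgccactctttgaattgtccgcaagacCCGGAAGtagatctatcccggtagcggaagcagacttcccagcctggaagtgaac

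These were the only calls between the strains: 2 of 44 genes (4.55%) passed in AcB61 minus AcB55, 0 of them higher in AcB61, against 12.3% of all features (5.29% higher and 6.98% lower). The smaller values leaned the other way. The mean of AcB61 was above that of AcB55 in 36 of 44 genes, against 6911 of 13045 features, and the median difference over the genes was 0.13, against 0.01 over all features. The largest of these differences that did not pass were those of Mrpl24 (0.38, adjusted p = 0.145), Mrpl44 (0.33, adjusted p = 0.109) and Mrpl30 (0.28, adjusted p = 0.0894). Mrpl30 averaged 0.08 ± 0.14 in AcB61 (SD, n = 8) and -0.19 ± 0.27 in AcB55 (SD, n = 6), where array 2 alone was above 0. Without AcB55 array 2 the count was 4, and Mrpl30 and Mrpl2 were the 2 added. Without AcB61 arrays 3, 5 and 7 it was 13, without arrays 2, 6 and 8 it was 6, and without AcB55 arrays 1 and 2 it was 4. Over all features, the calls between the strains were 1601 of 13045 with all arrays and 1694 of 13041 without AcB55 array 2. They were 2781 of 13044 without AcB61 arrays 3, 5 and 7, and 2545 of 13045 without arrays 2, 6 and 8. Without AcB55 arrays 1 and 2 they were 1960 of 13011.

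In AcB61 the other large-subunit genes that passed were Mrpl51, Mrpl20, Mrpl18, Mrpl12 and Mrpl38, which were higher, and Mrpl9 and Mrpl52, which were lower. Mrpl51 ran from -0.06 through a median of 0.25 to 0.65 on the AcB61 arrays, and from -0.17 through -0.04 to 0.46 on the AcB55 arrays. It was above 0 on all AcB61 arrays but array 5 and highest on arrays 2, 6 and 8, and the strains overlapped. Its mean was 0.32 ± 0.28 in AcB61 (SD, n = 8; SE 0.08, adjusted p = 0.00928) and 0.06 ± 0.23 in AcB55 (SD, n = 6; adjusted p = 0.762). Without AcB61 arrays 2, 6 and 8 it did not pass (0.13, adjusted p = 0.259).

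Mrpl20, which in the bacterial ribosome binds early in assembly, showed the opposite order of arrays. It ran from -0.24 through 0.22 to 0.92 in AcB61 and from -0.30 through 0.04 to 0.44 in AcB55. The AcB61 values were highest on arrays 7, 5 and 3 and below 0 on arrays 6 and 8. Its mean was 0.30 ± 0.39 in AcB61 (SD, n = 8; SE 0.11, adjusted p = 0.0488), just inside the threshold, and 0.06 ± 0.27 in AcB55 (SD, n = 6; adjusted p = 0.813). It was 0.51 without AcB61 arrays 2, 6 and 8 (adjusted p = 0.00197) and 0.05 without arrays 3, 5 and 7 (adjusted p = 0.745). Mrpl20 lost its call in 9 of the 14 leave-outs (adjusted p up to 0.156), AcB61 arrays 1, 3, 4, 5 and 7 and AcB55 arrays 2, 3, 4 and 5.

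Mrpl18 is the counterpart of bacterial L18. It ran from -0.13 through 0.19 to 0.71 in AcB61 and from 0.06 through 0.17 to 0.54 in AcB55. Arrays 6 and 2 were the highest of AcB61, array 2 was the highest of AcB55, and the AcB55 range lay inside that of AcB61. The mean was 0.23 ± 0.27 in AcB61 (SD, n = 8; SE 0.07, adjusted p = 0.0303) and 0.21 ± 0.17 in AcB55 (SD, n = 6; SE 0.09, adjusted p = 0.0931), and AcB61 minus AcB55 did not pass (0.02, SE 0.11, adjusted p = 0.938). Without AcB61 array 2, 6 or 8 the AcB61 call was lost (0.19, 0.16 and 0.23, adjusted p = 0.0898, 0.0917 and 0.0532). Without these 3 arrays together the AcB61 mean was 0.08 (adjusted p = 0.435). The AcB55 mean passed with array weights (0.20, adjusted p = 0.0447), with values centred and scaled (0.23, adjusted p = 0.0387), with arrays of like title number as a random block (0.22, adjusted p = 0.0366), without AcB61 array 6 (0.21, adjusted p = 0.0439) and without AcB61 arrays 2, 6 and 8 (adjusted p = 0.0171).

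Mrpl12, which also binds the mitochondrial RNA polymerase, ran from -0.05 through 0.19 to 0.44 in AcB61 and from -0.30 through 0.07 to 0.26 in AcB55. It was above 0 on 7 of 8 AcB61 arrays, and the strains overlapped. The mean was 0.19 ± 0.18 in AcB61 (SD, n = 8; adjusted p = 0.0411) and 0.01 ± 0.21 in AcB55 (SD, n = 6; adjusted p = 0.941). Its call was lost without AcB61 array 1, 3, 5, 6 or 7 and without AcB55 array 4 (0.16 to 0.20, adjusted p 0.0510 to 0.114), and also without AcB61 arrays 2, 6 and 8 (0.21, adjusted p = 0.0713) or 3, 5 and 7 (0.14, adjusted p = 0.223). Mrpl38, a large-subunit protein with no bacterial counterpart, had values from -0.05 through 0.21 to 0.34 on 7 AcB61 arrays and from -0.16 through -0.01 to 0.07 on 5 AcB55 arrays. It was below 0 only on AcB61 array 7, and the AcB61 arrays other than array 7 all lay above the AcB55 arrays. Its mean was 0.18 ± 0.13 in AcB61 (SD, n = 7; adjusted p = 0.0155) and -0.02 ± 0.09 in AcB55 (SD, n = 5; adjusted p = 0.882). Without AcB61 array 4 it was 0.15 and did not pass (adjusted p = 0.0559), nor did it without arrays 2, 6 and 8 (0.14, adjusted p = 0.167).

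Of the genes lower in AcB61, Mrpl9, whose bacterial counterpart reaches out from the stalk that carries L1, was below 0 on all 7 AcB61 arrays with a value. It ran from -0.44 through -0.26 to -0.07 in AcB61 and from -0.30 through -0.02 to 0.11 in AcB55, and the strains overlapped. The mean was -0.25 ± 0.15 in AcB61 (SD, n = 7; SE 0.06, adjusted p = 0.00432) and -0.06 ± 0.14 in AcB55 (SD, n = 6; adjusted p = 0.580). It passed without AcB61 arrays 2, 6 and 8 (-0.34, adjusted p = 0.00221) and without arrays 3, 5 and 7 (-0.19, adjusted p = 0.0378). Mrpl52, another large-subunit protein with no bacterial counterpart, ran from -0.58 through -0.12 to 0.10 in AcB61 and from -0.22 through -0.05 to 0.03 in AcB55. Arrays 2 and 6 were far below the other AcB61 arrays, and array 8 was just below the lowest AcB55 array. Array 3 of AcB61 was above the highest AcB55 array, and the remaining AcB61 arrays lay within the AcB55 range. Its mean of -0.20 ± 0.25 in AcB61 (SD, n = 8; adjusted p = 0.0378) stood against -0.08 ± 0.11 in AcB55 (SD, n = 6; adjusted p = 0.557). Without AcB61 array 2, 4, 6 or 8 the call was lost (-0.21 to -0.15, adjusted p 0.0526 to 0.118), and the mean was -0.04 without arrays 2, 6 and 8 (adjusted p = 0.625) and -0.32 without arrays 3, 5 and 7 (adjusted p = 0.00410).

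**Figure D2:**
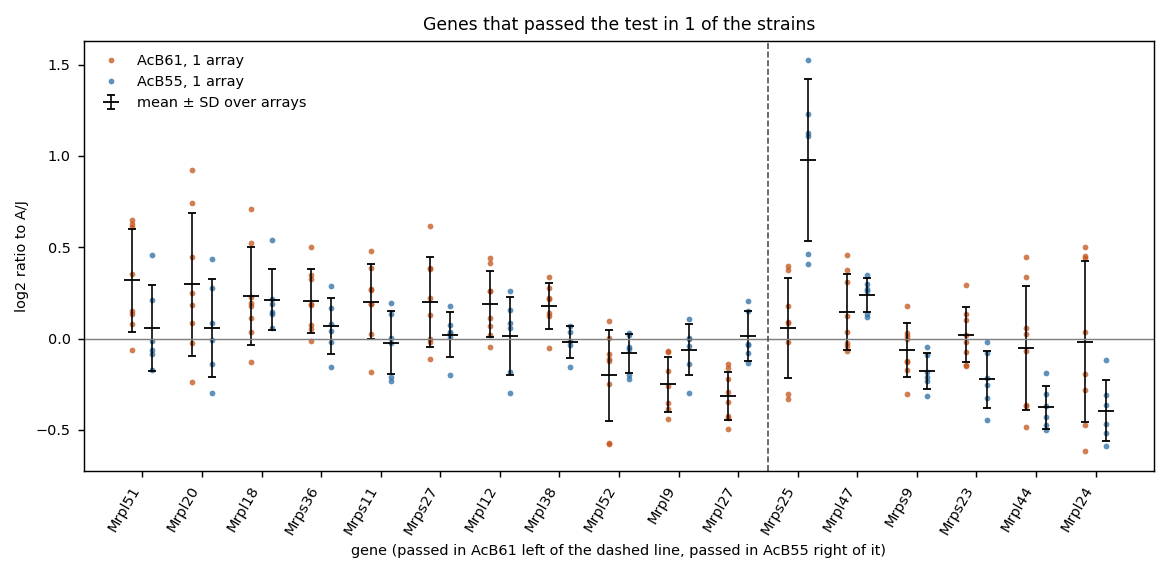
Log2 ratio to A/J on each array (points, AcB61 in orange left of AcB55 in blue) and the mean ± SD for the 17 genes that passed in either strain. The 11 genes left of the dashed line passed in AcB61 and the 6 right of it in AcB55, and Mrps25 and Mrpl27 are the genes whose strains differed.

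The small subunit gave 3 calls in AcB61, Mrps36, Mrps11 and Mrps27, all higher. Mrps36 ran from -0.01 through 0.18 to 0.50 in AcB61 and from -0.16 through 0.06 to 0.29 in AcB55. It was above 0 on 7 of 8 AcB61 arrays, highest on arrays 7, 3 and 5, and the strains overlapped. The mean was 0.21 ± 0.17 in AcB61 (SD, n = 8; SE 0.06, adjusted p = 0.0146) and 0.07 ± 0.15 in AcB55 (SD, n = 6; adjusted p = 0.571). Without AcB61 arrays 3, 5 and 7 it was 0.10 and did not pass (adjusted p = 0.290).

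Mrps11 encodes a protein of the platform of the small subunit, close to where the messenger RNA passes. It ran from -0.18 through 0.23 to 0.48 in AcB61 and from -0.23 through -0.01 to 0.19 in AcB55. All AcB61 arrays but array 5 were above 0, and the strains overlapped. The mean was 0.20 ± 0.21 in AcB61 (SD, n = 8; adjusted p = 0.0299) and -0.02 ± 0.17 in AcB55 (SD, n = 6; adjusted p = 0.896). The call was lost without AcB61 array 1, 2, 3, 6 or 8 (0.16 to 0.20, adjusted p 0.0532 to 0.0878).

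Mrps27, a pentatricopeptide repeat protein of the small subunit, ran from -0.11 through 0.18 to 0.62 in AcB61 and from -0.20 through 0.04 to 0.18 in AcB55. AcB61 array 8 was the highest and arrays 3 and 5 were below 0, within the range of AcB55. Its mean was 0.20 ± 0.25 in AcB61 (SD, n = 8; adjusted p = 0.0401) and 0.02 ± 0.12 in AcB55 (SD, n = 6; adjusted p = 0.901). The call was lost without AcB61 array 1, 2, 4, 6 or 8 (0.14 to 0.21, adjusted p 0.0562 to 0.129). Without AcB61 arrays 2, 6 and 8 neither Mrps11 (0.10, adjusted p = 0.370) nor Mrps27 (0.08, adjusted p = 0.463) passed, and without arrays 3, 5 and 7 Mrps27 was at 0.35 (adjusted p = 0.00118).

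In AcB55 the large-subunit gene Mrpl47 was higher, and Mrpl24 and Mrpl44 were lower. Mrpl44, which has a fold like that of RNase III, ran from -0.48 through -0.02 to 0.45 in AcB61 and from -0.50 through -0.40 to -0.19 in AcB55. All 6 AcB55 arrays were below 0, while AcB61 was split, with arrays 2, 6 and 8 as low as AcB55 and arrays 5 and 7 well above 0. The mean was -0.05 ± 0.34 in AcB61 (SD, n = 8; adjusted p = 0.741) and -0.38 ± 0.12 in AcB55 (SD, n = 6; SE 0.10, adjusted p = 0.00950). It kept its AcB55 call in all 14 leave-outs (-0.41 to -0.35, adjusted p up to 0.0339) but not without AcB55 arrays 3 and 4 (-0.35, adjusted p = 0.0815). Without AcB61 arrays 3, 5 and 7 it was also lower in AcB61 (-0.25, adjusted p = 0.0163), and without arrays 2, 6 and 8 AcB61 minus AcB55 was 0.54 (adjusted p = 0.00196).

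Mrpl24, at the exit of the peptide tunnel, ran from -0.62 through -0.08 to 0.50 in AcB61 and from -0.59 through -0.41 to -0.12 in AcB55. Its AcB55 arrays were all below 0, and its AcB61 arrays spread on both sides of them. The mean was -0.02 ± 0.44 in AcB61 (SD, n = 8; adjusted p = 0.943) and -0.39 ± 0.17 in AcB55 (SD, n = 6; SE 0.12, adjusted p = 0.0311). The AcB55 call was lost when any AcB55 array but array 2 was left out (-0.41 to -0.35, adjusted p 0.0540 to 0.102). In AcB61 it passed as lower without arrays 2, 6 and 8 (-0.31, adjusted p = 0.0118), and without arrays 3, 5 and 7 AcB61 minus AcB55 was 0.62 (adjusted p = 0.00383).

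Mrpl47, a large-subunit protein related to bacterial L29, was above 0 on all 6 AcB55 arrays, running from 0.12 through 0.27 to 0.35, and ran from -0.07 through 0.08 to 0.46 in AcB61. The narrow AcB55 range lay inside that of AcB61. The mean was 0.15 ± 0.21 in AcB61 (SD, n = 8; adjusted p = 0.0834) and 0.24 ± 0.09 in AcB55 (SD, n = 6; adjusted p = 0.0169), with no call between them (-0.09, adjusted p = 0.546). The call was lost without AcB55 array 1 (0.22, adjusted p = 0.0578) or array 5 (0.23, adjusted p = 0.0524), and without AcB61 arrays 2, 6 and 8 the AcB61 mean passed too (0.25, adjusted p = 0.0130). The gene has 2 probes, which disagreed: with every probe fitted on its own, the first averaged 0.05 ± 0.13 in AcB61 and 0.35 ± 0.09 in AcB55 (difference -0.30, adjusted p = 0.0146), and the second 0.25 ± 0.34 in AcB61 and 0.13 ± 0.23 in AcB55 (difference 0.11, adjusted p = 0.648).

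The small-subunit genes lower in AcB55 were Mrps23 and Mrps9, and both were below 0 on all 6 AcB55 arrays. Mrps23, which has no bacterial counterpart, ran from -0.15 through 0.00 to 0.29 in AcB61 and from -0.45 through -0.24 to -0.02 in AcB55. The mean was 0.02 ± 0.15 in AcB61 (SD, n = 8; adjusted p = 0.852) and -0.22 ± 0.16 in AcB55 (SD, n = 6; adjusted p = 0.0178), with a difference of 0.24 (adjusted p = 0.0687). Its ranges overlapped between the strains, and the call was lost without AcB55 array 1 (-0.20, adjusted p = 0.0597) or array 6 (-0.18, adjusted p = 0.0859).

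Mrps9, on the head of the small subunit, ran from -0.30 through -0.06 to 0.18 in AcB61 and from -0.32 through -0.19 to -0.05 in AcB55. The AcB55 values fell within the AcB61 range but for array 6. Its mean was -0.06 ± 0.15 in AcB61 (SD, n = 8; adjusted p = 0.428) and -0.18 ± 0.10 in AcB55 (SD, n = 6; adjusted p = 0.0350). The call was lost without AcB55 array 1, 2, 3 or 6 (-0.18 to -0.15, adjusted p 0.0698 to 0.127).

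The medians of the subunits lay close together. The median log2 ratio in AcB61 was 0.08 over all 44 genes, 0.10 over the large and 0.06 over the small subunit, against -0.00067 over all features. In AcB55 it was -0.03 over all 44 genes, -0.04 over the large and -0.03 over the small subunit, against -0.0019 over all features. The large subunit had 8 of 31 genes (25.8%) and the small subunit 3 of 13 (23.1%) called in AcB61, against 23.8% of all features. In AcB55 it was 3 of 31 (9.68%) and 3 of 13 (23.1%), against 20.7% of all features, and between the strains 1 of 31 (3.23%) and 1 of 13 (7.69%), against 12.3% of all features. On each array, the median of the large subunit minus that of the small averaged -0.01 ± 0.08 in AcB61 (SD, n = 8, range -0.11 to 0.10) and -0.01 ± 0.06 in AcB55 (SD, n = 6, range -0.07 to 0.08). The difference between the medians was thus smaller than its spread between arrays, also with Mrps18a counted with the large subunit and Mrps36 left out (0.0010 in AcB61 and -0.0093 in AcB55). With means in place of medians it was -0.01 in AcB61 and -0.07 in AcB55. The AcB55 mean over the small subunit, 0.03, includes Mrps25 at 0.98.

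The median over all 44 genes varied from array to array. It was lowest on AcB61 array 5 (-0.09) and highest on array 6 (0.19), and in AcB55 lowest on array 6 (-0.11) and highest on array 2 (0.16). Of the genes with a value, 14 of 42 were above 0 on AcB61 array 5 and 32 of 44 on array 6, and 9 of 44 on AcB55 array 6 and 33 of 42 on array 2. Averaged over arrays, the median of the 44 genes was 0.06 ± 0.08 in AcB61 (SD, n = 8) and -0.02 ± 0.10 in AcB55 (SD, n = 6).

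Nuclear genes of the respiratory chain and the ATP synthase, complexes for which this ribosome makes core subunits, had medians further from 0 than the ribosomal genes themselves. The list holds nuclear genes only, so none of its products is made by this ribosome. In AcB61, 16 of the 52 tested genes were higher and 1 lower (32.7%, against 23.8% of all features), with a median of 0.17. In AcB55, 3 were higher and 7 lower (19.2%, against 20.7% of all features), with a median of -0.11. The share called in AcB55 was thus near that of all features. Between the strains 9 of the 52 were higher in AcB61 and 0 lower (17.3%, against 12.3% of all features). The median over these genes was highest in AcB61 on arrays 6, 2 and 8 (0.41, 0.35 and 0.35) and at most 0.03 on arrays 3, 5 and 7. In AcB55 it was above 0 on arrays 1 and 2 (0.06 and 0.13) and below 0 on the other 4. The arrays with the highest and the lowest median of the 44 genes, AcB61 arrays 6 and 5 and AcB55 arrays 2 and 6, had the highest and the lowest of their strain here too, and whether 1 accounts for the other was not tested.

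The ribosomal proteins of the cytosol were set beside them as the other ribosome of the same cells. Of 60 tested genes 2 were higher and 1 lower in AcB61 (5%, against 23.8% of all features, median -0.02). In AcB55 0 were higher and 38 lower (63.3%, against 20.7% of all features, median -0.32). Between the strains 27 of 60 were higher in AcB61 and 0 lower (45%, against 12.3% of all features, median 0.29). In AcB55 the 44 mitochondrial genes had a median of -0.03, a smaller shift than that of the cytosolic genes. Of the 44, 4 were called lower there, where 10.9% of all features were lower. Their AcB55 means were below 0 in 27 of 44 genes, against 54 of 60 cytosolic genes and 6618 of 13045 features. Whether the lists differ from each other was not tested.

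**Figure D3:**
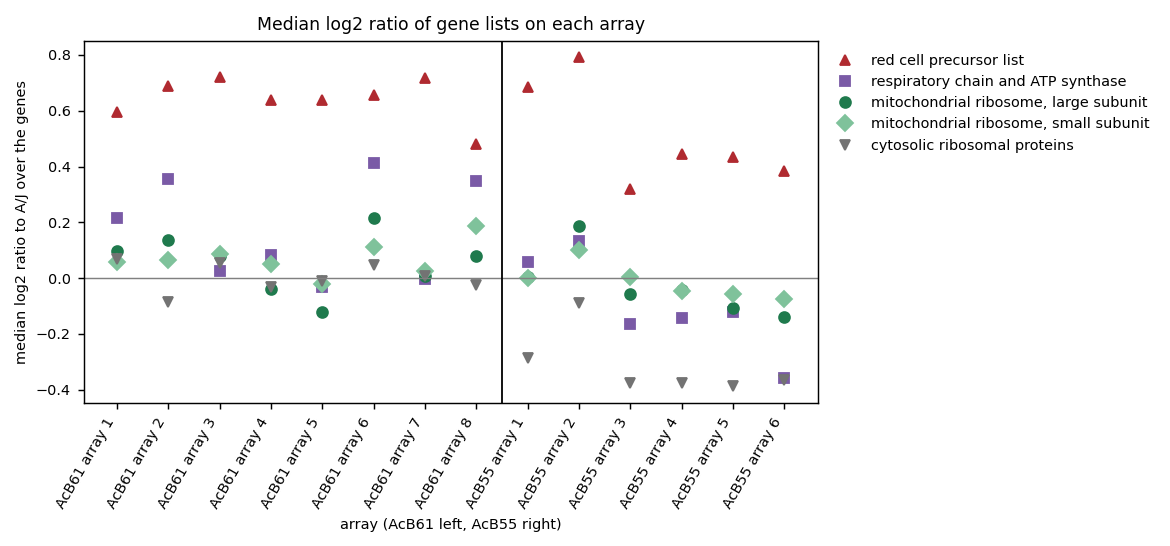
Median log2 ratio to A/J over the genes of each list on each array (AcB61 left, AcB55 right). The medians of the mitochondrial ribosome's genes stay between -0.14 and 0.21 on all 14 arrays, while the cytosolic ribosomal proteins lie below -0.28 on 5 of the 6 AcB55 arrays and the red cell precursor list above 0.32 on every array.

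Many genes that differ between cell types moved far more than the ribosomal genes. Of all features, 23.8% passed in AcB61 and 20.7% in AcB55. Of 18 tested genes of red cell precursors, 15 were higher in AcB61 (median 0.73), and 13 were higher and 1 lower in AcB55 (median 0.54), among them Slc4a1 (1.07 ± 0.23 in AcB61, n = 8, and 1.28 ± 0.31 in AcB55, n = 5), the red cell anion exchanger. Of 26 tested genes of dividing cells 21 were higher in AcB61 and 20 in AcB55, with none lower. The median by array ran from 0.36 to 0.75 in AcB61 and from 0.38 to 0.91 in AcB55 for dividing cells, and from 0.48 to 0.72 in AcB61 and from 0.32 to 0.79 in AcB55 for red cell precursors. Macrophage genes were lower in 3 of 7 and higher in 1 of 7 in AcB61, and lower in 5 and higher in 1 in AcB55. Granulocyte genes were higher in 2 of 4 and lower in 1 in AcB61, and higher in 1 in AcB55. B cells were measured by Blnk alone, which was lower in AcB61 (-0.58 ± 0.20, SD, n = 6) and AcB55 (-1.07 ± 0.30, SD, n = 6), T and NK cells by Satb1 alone (-0.03 in AcB61 and -0.18 in AcB55, the second of them called), platelets by 2 genes, both lower in AcB61 and neither called in AcB55, and exocrine pancreas by 1 gene, called in neither. The part of these cell types in the values of the mitochondrial ribosomal genes was not tested.

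Other genes of mitochondrial gene expression were counted beside the same shares of all features, 23.8% in AcB61, 20.7% in AcB55 and 12.3% between the strains. Of the 18 tested proteins of this ribosome or of its assembly whose symbols have another form, 1 was higher in AcB61, Afg3l2 (0.28 ± 0.21, SD, n = 8; adjusted p = 0.00243), a protease subunit of the inner membrane that processes Mrpl32. This is 5.56% of them in AcB61. In AcB55 1 was higher and 2 lower (16.7%), and 11.1% passed between the strains. Trub2, a pseudouridine synthase, averaged -0.01 ± 0.16 in AcB61 (SD, n = 8) and -0.61 ± 0.20 in AcB55 (SD, n = 6; adjusted p = 9.35e-06), and the strains differed (0.59, adjusted p = 0.00127). Ngrn, another assembly factor, averaged 0.04 ± 0.18 in AcB61 (SD, n = 8) and -0.26 ± 0.07 in AcB55 (SD, n = 6; adjusted p = 0.00495; difference 0.30, adjusted p = 0.0252). Ptcd3, a small-subunit protein, was the one that was higher in AcB55 (0.21 ± 0.19, SD, n = 6; adjusted p = 0.0194; 0.03 ± 0.10 in AcB61, SD, n = 8).

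No translation factor of mitochondria (5 tested) and no mitochondrial aminoacyl-tRNA synthetase (9 tested) passed in AcB61, in AcB55 or between the strains by limma's test. At an unadjusted p under 0.05 there were 2 factors in AcB61, 0 in AcB55 and 1 between the strains, and 1 synthetase in AcB61 and 0 in the others. Of 15 genes of mitochondrial DNA replication and transcription 13.3% passed in AcB61, 6.67% in AcB55 and 13.3% between the strains. Twnk, the replicative helicase, was lower in AcB61 (-0.32 ± 0.18, SD, n = 8; adjusted p = 0.00216) and higher in AcB55 (0.26 ± 0.24, SD, n = 6; adjusted p = 0.0249), with a difference of -0.58 (adjusted p = 0.00245). Hsd17b10, a subunit of the enzyme that trims mitochondrial tRNA, was higher in AcB61 (0.29 ± 0.30, SD, n = 8; adjusted p = 0.00967), at -0.14 ± 0.12 in AcB55 (SD, n = 6; difference 0.43, adjusted p = 0.0249).

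Import and folding, through which every protein of this ribosome passes, was measured by 23 genes. In AcB61 5 were higher and 1 lower (26.1%), in AcB55 2 were higher and 1 lower (13.0%), and 8.70% passed between the strains. Tomm5, Tomm22 and the chaperonin gene Hspe1 were higher in AcB61 (0.20, 0.22 and 0.31, adjusted p = 0.0138, 0.0329 and 0.00564). The chaperonin gene Hspd1 was higher in AcB55 (0.21, adjusted p = 0.00904), as was Timm22 (0.23, adjusted p = 0.0377). Tomm34 was lower in both strains, by limma's test (-0.30 in AcB61, adjusted p = 0.00171, and -0.48 in AcB55, adjusted p = 0.000217). Between the strains Tomm5 (0.30, adjusted p = 0.0267) and Grpel2, a cofactor of mitochondrial Hsp70 (0.23, adjusted p = 0.0472), were higher in AcB61.

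The spread between arrays was part of the pattern in AcB61. The SD over arrays had a median of 0.19 over the 44 genes in AcB61 (0.09 to 0.44) and of 0.15 in AcB55 (0.06 to 0.44), against 0.17 and 0.15 over all features. The 6 genes with the largest SD over the AcB61 arrays were Mrpl24, Mrpl20, Mrpl3, Mrpl28, Mrps18b and Mrpl44 (0.34 to 0.44), a choice made after the values were seen. Mrpl3, a core protein near the site of peptide bond formation, was at 0.45, 0.56 and 0.40 on AcB61 arrays 2, 6 and 8 and at -0.47, -0.25 and -0.33 on arrays 3, 5 and 7, with 0.10 and 0.06 on arrays 1 and 4. Its mean of 0.07 ± 0.39 in AcB61 (SD, n = 8) did not pass (adjusted p = 0.692), nor did that of -0.14 ± 0.13 in AcB55 (SD, n = 6; adjusted p = 0.440). Without arrays 3, 5 and 7 its AcB61 mean was 0.32 and passed (adjusted p = 0.00450). Mrpl28 and Mrps18b had the same high arrays, with 0.54, 0.58 and 0.55 for Mrpl28 and 0.26, 0.56 and 0.53 for Mrps18b on arrays 2, 6 and 8. They too passed as higher in AcB61 without arrays 3, 5 and 7 (0.38, adjusted p = 0.00953, and 0.26, adjusted p = 0.0245). Mrpl20 and Mrpl44 were instead at their lowest on arrays 2, 6 and 8, with -0.37, -0.36 and -0.48 for Mrpl44. The mean over the AcB61 arrays of such a gene thus joins values of opposite sign.

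**Figure D4:**
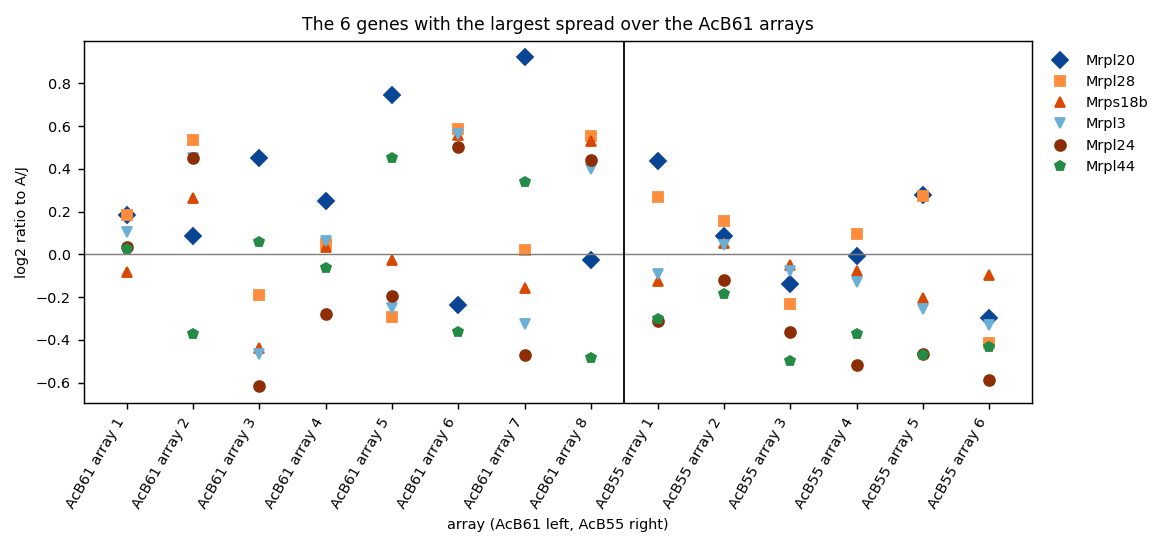
Log2 ratio to A/J on each array (AcB61 left, AcB55 right) of the 6 genes with the largest SD over the AcB61 arrays. Mrpl3, Mrpl24, Mrpl28 and Mrps18b are high on AcB61 arrays 2, 6 and 8, where Mrpl20 and Mrpl44 are at their lowest.

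The other genes with more than 1 probe were Mrpl48, Mrps17 and Mrps7, of which none passed. The 2 probes of Mrpl48 averaged 0.10 and 0.10 in AcB61 and -0.04 and -0.11 in AcB55. Those of Mrps17 averaged 0.04 ± 0.31 and 0.16 ± 0.25 in AcB61 (SD, n = 8) and 0.04 ± 0.08 and -0.10 ± 0.10 in AcB55 (SD, n = 6). The 3 probes of Mrps7 lay between 0.03 and 0.06 in AcB61 and between -0.01 and 0.10 in AcB55. For these genes the probes differed by less than their spread over arrays, save for Mrps17 and Mrps7 in AcB55.

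The 27 genes that passed in no comparison had means from -0.08 to 0.18 in AcB61 and from -0.21 to 0.11 in AcB55. Of these, Mrpl3, Mrpl16, Mrpl17, Mrpl21, Mrpl28 and Mrps18b passed as higher in AcB61 without arrays 3, 5 and 7. Mrpl21 was then at 0.33 (adjusted p = 0.00474). The genes at the ends, named after their values were seen, were at the top Mrpl21 in AcB61 (0.18 ± 0.28, SD, n = 8; adjusted p = 0.0923) and Mrpl50 in AcB55 (0.11 ± 0.13, SD, n = 6; adjusted p = 0.231). At the bottom were Mrpl11 in AcB61 (-0.08 ± 0.20, SD, n = 8; adjusted p = 0.364), a protein of the base of the stalk that receives translation factors, and Mrpl58 in AcB55 (-0.21 ± 0.23, SD, n = 6; adjusted p = 0.0838), which frees peptides from stalled ribosomes. By sign alone, 14 of the 44 genes were above 0 in both strains, 10 below in both, 17 above in AcB61 and below in AcB55, and 3 the other way round. The 44 genes lie on 13 chromosomes, with at most 6 on any of them.

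The RefSeq promoter table (GRCm38.p6, the C57BL/6J reference) held 39 of the 44 genes, with windows of 300 bases from 250 before the start. They were searched on both strands for the letters CCGGAAG of the ETS factors, AAGATGGC of YY1 and GCGCATGC of NRF1, factors known to act at many nuclear genes of mitochondria. The ETS letters were in 13 of 39 genes (33.3%), against 12.9% of the 17491 protein-coding genes of the table. The YY1 letters were in 7 (17.9%), against 3.57%, and the NRF1 letters in 4 (10.3%), against 3.93%. By subunit, 9 of 27 large and 4 of 12 small subunit genes held the ETS letters, and 3 of 27 and 4 of 12 the YY1 letters. In all, 19 genes held at least 1 of the motifs, and the Mrps25 window held none. A match is a description of these letters in the reference sequence and not a site shown to be bound.

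The ETS letters occurred in genes that were higher and in genes that were lower, as the following stretches of 30 bases show. They give 1 match for each gene called in either strain that held the letters, other than Mrpl27, whose match is shown above. Each is read along the gene, with the match in capitals. CTTCCGG is the same motif on the opposite strand. The positions are, in the order given, chr6:125192099-125192128 (plus), chr17:12916312-12916341 (minus), chr13:99344727-99344756 (plus), chr14:54426851-54426880 (plus) and chr11:88204392-88204421 (plus). Mrpl51, Mrpl18 and Mrps27 were higher in AcB61, Mrpl52 was lower in AcB61, and Mrps23 was lower in AcB55.
Mrpl51: caggggctaaaCCGGAAGtatttgactgga
Mrpl18: actgaaaacgCCGGAAGtagggggctgcgg
Mrps27: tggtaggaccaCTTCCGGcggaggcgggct
Mrpl52: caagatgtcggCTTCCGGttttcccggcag
Mrps23: tgccgcttccgCTTCCGGtaacagcccgag

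Mrps11 and Mrpl46 are transcribed away from each other from start sites with 41 bases between them (chr7:78783090-78783130, plus strand). This stretch is shown because it lies between the start sites of both genes, of which only Mrps11 was called. Whether it acts as a promoter of both, and whether the genes differ from each other, was not tested.
Mrpl46 and Mrps11: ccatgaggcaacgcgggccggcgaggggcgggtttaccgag
Mrps11 passed in AcB61, as given above, and Mrpl46 averaged 0.05 ± 0.22 in AcB61 (SD, n = 8; adjusted p = 0.696) and -0.04 ± 0.19 in AcB55 (SD, n = 6; adjusted p = 0.781). On AcB61 arrays 2, 6 and 8 Mrpl46 was at 0.30, 0.20 and 0.38 and Mrps11 at 0.38, 0.48 and 0.27, while Mrpl46 was below 0 on all 5 other AcB61 arrays and Mrps11 on array 5 alone. The YY1 letters of Mrps11 lie outside this stretch.
Mrps11: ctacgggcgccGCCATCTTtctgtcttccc
They are at chr7:78783013-78783042 (plus strand), on the strand opposite to the gene, on the Mrpl46 side of the stretch between the start sites.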

How the data were processed

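Spleen RNA was measured on 2-colour spotted mouse arrays. The authors deposited a table of log ratios, taken here as log2 of the strain over A/J, from images quantified with QuantArray 3.0, per the labels. The base of the logarithm, the dye of each channel and the full normalization are not given in the sources used here. Of 15247 features, 14612 had a value. The number of arrays and their spread limit the precision.

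Genes were named from the platform annotation: 7849 measured probes had 1 symbol, 356 had several and 6407 had none, and all 49 probes of the 44 genes were found in the RefSeq gene table. Probes of 1 gene were averaged. Features with at least 3 arrays per strain were fitted with limma 3.58.1 in R 4.3.3 (a mean per strain, lmFit and eBayes), and p-values were adjusted by Benjamini-Hochberg over 13045 features at 0.05. Every adjusted p comes from limma. The fit was tested on simulated data. Tables, motifs and plots were made in Python 3.11.15 (pandas 2.3.3, numpy 2.4.6, matplotlib 3.10.9).

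The text names every gene past the threshold in any comparison, in each comparison the 3 highest and 3 lowest, the genes with more than 1 probe, and up to 4 called genes of each context list. The genes and lists were chosen with earlier results of these data known. Alternatives covered the missing-value filter, centring, scaling, quantile normalization, single probes, array weights, robust eBayes, a random block and left-out arrays.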

Additional observations from a re-analysis of the deposited data

Results flagged for a closer look

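Mrps25 and Mrpl27 are listed because their change from A/J differed between the strains by limma's test. AcB61 minus AcB55 was -0.92 for Mrps25 (adjusted p = 0.00245) and -0.33 for Mrpl27 (adjusted p = 0.0125).

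In 3 of 88 checks of the highest and lowest array of a gene within a strain, 1 array stood far from the others, where chance alone gives about 1 in 20. Mrpl18 was at 0.54 on AcB55 array 2, against 0.06 to 0.22 on the other AcB55 arrays. Mrpl30 was at 0.32 on the same array, against -0.43 to -0.20 on the others. Mrps35 was at -0.43 on AcB55 array 6, against -0.10 to 0.07 on the others.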

How the results depend on the processing

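No call changed its direction under any alternative tried. The count of called genes was 11 in AcB61, 6 in AcB55 and 2 between the strains. Without the AcB55 arrays whose titles end in b it was 7 in AcB61, 2 in AcB55 and 1 between the strains. Without AcB61 arrays 2, 6 and 8 it was 6 in AcB61 and 6 between the strains, and without AcB61 arrays 3, 5 and 7 it was 13 between the strains. Between the strains it was also 8 with array weights, 6 with a random block of arrays that share the first 5 digits of the number in their title (consensus correlation -0.14) and 4 without AcB55 arrays 1 and 2. Leaving out each array in turn gave 6 to 11 in AcB61, 2 to 8 in AcB55 and 2 to 4 between the strains. Over all features, the 1601 calls between the strains were 2826 with array weights, 2602 with the random block and 705 without the arrays marked b. They were 2545 without AcB61 arrays 2, 6 and 8, and 2781 without AcB61 arrays 3, 5 and 7. Without AcB55 arrays 1 and 2 they were 1960, and without AcB55 array 5 or 6 they were 924 and 854. Without the arrays marked b, 2808 of 12978 features passed in AcB61 and 2032 in AcB55, against 3103 and 2695 of 13045 with all arrays. The large minus small subunit value moved by less than its spread between arrays throughout (-0.03 to -0.0015 in AcB61 and -0.03 to -0.0043 in AcB55 over the left-out arrays). With means in place of medians it was -0.07 in AcB55, larger than the SD of 0.06 of the medians, and -0.04 with a value required on all 14 arrays. The AcB55 mean was -0.04 over the large subunit and 0.03 over the small, which includes Mrps25 at 0.98. Over all 44 genes it was -0.02, and -0.04 without Mrps25. In AcB61 the large minus small subunit value was -0.04 without arrays 2, 6 and 8. The cause of these changes was not tested. Mrpl20, at the edge of the threshold, was 0.30 and not called with a value required on all 14 arrays (adjusted p = 0.0504) or with each array centred (adjusted p = 0.0501). No paired analysis was possible because the labels give each array a serial number of its own and no replicate number that the strains share. The lack of an array of A/J against A/J, the unknown dyes and the single probe of most genes limit all values.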
